A study of Mus musculus with 6 samples.

Results

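The core circadian clock of the liver was examined through 10 genes, chosen by symbol: Arntl (the gene of BMAL1), Clock and Npas2, which make up the activating limb, and Per1, Per2, Per3, Cry1, Cry2, Nr1d1 and Nr1d2, which make up the repressing limb. They were 10 of the 54532 genes with an Ensembl identifier in a table of read counts from 6 mouse liver libraries. Livers came from wild-type C57BL/6J males that ate a high-fat diet (HFD) for 4 weeks. The study's methods give their age at entry as 8 weeks, while the labels can be read as 4 weeks. The HFD group (libraries HFD1, HFD2 and HFD3) stayed on this diet for 4 further weeks with plain drinking water. The HFD+Allantoin-H group (libraries HAH4, HAH5 and HAH6) ate the same diet for the same time with allantoin, the product of uric acid oxidation, in the drinking water. The labels name the concentrations 0.06 and 0.3 mg/mL without saying which applied to a library, and the study's methods give 0.3 mg/mL for the group called Allantoin-H. All 6 livers were therefore exposed to HFD, and neither chow-fed mice nor the lower concentration were analysed here. The libraries are numbered, but the labels do not tie each one to its own mouse, so p-values measure the spread between libraries. The mice lived under a light/dark cycle, and the hour at which each liver was taken is not given in the sources used here. Because clock RNAs change over the day, the hour of collection and the treatment cannot be told apart in this comparison.

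In the clock, BMAL1 pairs with CLOCK or its relative NPAS2 and switches on genes that carry E-boxes, among them the Per, Cry and Nr1d genes. PER and CRY proteins return to the nucleus and block the activator pair, while REV-ERBα and REV-ERBβ, encoded by Nr1d1 and Nr1d2, bind ROR elements and repress Arntl, Clock, Npas2 and Cry1. In liver the RNAs of the activating limb and those of Nr1d1, Dbp and Per3 peak at nearly opposite times of day, and this rhythm is set mainly by feeding time and by signals from the brain's clock.

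Promoter letters of the members are shown first, because the loop is known to act through these short elements. RefSeq windows of 300 bases around the transcription start (GRCm38.p6) existed for 9 of the 10 members, 13 windows in all, with none for Per2. Each motif was searched on both strands. Capitals mark the letters of the motif named beside each sequence below, and the sequences run 5′ to 3′ on the gene's own strand. The E-box, CACGTG, was found in 7.15% of all 32851 windows and in those of Per1 and Cry1. The related E′-box, CACGTT, was found in 4.68% of all windows and in those of Cry1, Cry2 and Nr1d1, each time on the strand opposite to the gene. The Cry1 copy, 79 bases upstream of the start, lies in lower case near the left end of the Cry1 E-box sequence below. The ROR element, written as TAGGTCA or TGGGTCA, was found in 6.45% of all windows and, among the members, in Arntl. The D-box, TTATGTAA or TTACGTAA, to which DBP, TEF, HLF and NFIL3 bind, was found in 1.06% of all windows and, among the members, in Per3, which held 2 copies. The cyclic AMP element TGACGTCA, found in 1.79% of all windows, was in no member window. A match describes the letters in the window and says nothing of binding.
Arntl, ROR element, chr7:113207530-113207558, plus strand: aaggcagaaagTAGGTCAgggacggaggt
Per1, E-box, chr11:69098763-69098808, plus strand: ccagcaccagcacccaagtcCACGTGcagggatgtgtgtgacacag
Cry1, E-box, chr10:85185089-85185134, minus strand: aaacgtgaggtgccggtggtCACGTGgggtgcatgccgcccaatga
Cry2, E′-box, chr2:92434210-92434255, minus strand: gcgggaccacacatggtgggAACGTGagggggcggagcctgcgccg
Nr1d1, E′-box, chr11:98775380-98775425, minus strand: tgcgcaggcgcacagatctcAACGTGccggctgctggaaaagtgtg
Per3, D-box 205 bases upstream of the start, chr4:151044843-151044890, minus strand: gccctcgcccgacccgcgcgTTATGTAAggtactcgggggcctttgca
Per3, D-box 158 bases upstream of the start, chr4:151044796-151044843, minus strand: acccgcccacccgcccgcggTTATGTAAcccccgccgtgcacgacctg

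Libraries held 11326372 to 14601457 counts. Values below are CPM, read counts scaled to a common library total, after TMM normalization, which sets the scale on the bulk of genes, and fold changes are log2 differences, HFD+Allantoin-H minus HFD, tested in edgeR over 12795 genes. Genes called at an adjusted p under 0.05 made up 24.3% of the tested genes, 11.3% higher and 13.0% lower. Leaving out HAH4, HAH5 or HAH6 cut the 1446 genes called higher to 596, 460 and 702. The 1666 called lower went to 700, 564 and 832. A call lost in those fits, as given below for single genes, was thus common over all genes. The mitochondrial chromosome took 17.9 to 36.5% of the counts in HFD and 6.92 to 11.4% in HFD+Allantoin-H. Scaling by library size alone moved the median of all genes from -0.03 to 0.38, so every change is relative to the bulk of genes. One library stood apart within HFD: in HFD3 the heat-shock gene Dnajb1 was at 955 CPM, against 19.8 to 72.2 CPM in the other 5. HFD2 held the highest summed level of adipocyte markers, 254 CPM against 35.7 to 82.2 CPM elsewhere.

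Within the clock, 2 repressor genes rose, Per3 and Cry2, 1 fell, Per1, and the other 6 tested members were not called. The 2 members called higher and the 1 called lower, of 9 tested, stand beside the 11.3% and 13.0% of all tested genes. The median log2 fold change was -0.27 over the 9 members and -0.03 over all tested genes. DESeq2 and limma-voom also called 2 members higher and 1 lower. All 3 HFD+Allantoin-H libraries lay above all 3 HFD libraries for Per3 and Cry2, an order seen in 22.4% of tested genes, and below them for Clock and Per1 among the tested members and for the untested Npas2, an order seen in 21.9%.

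**Figure D1:**
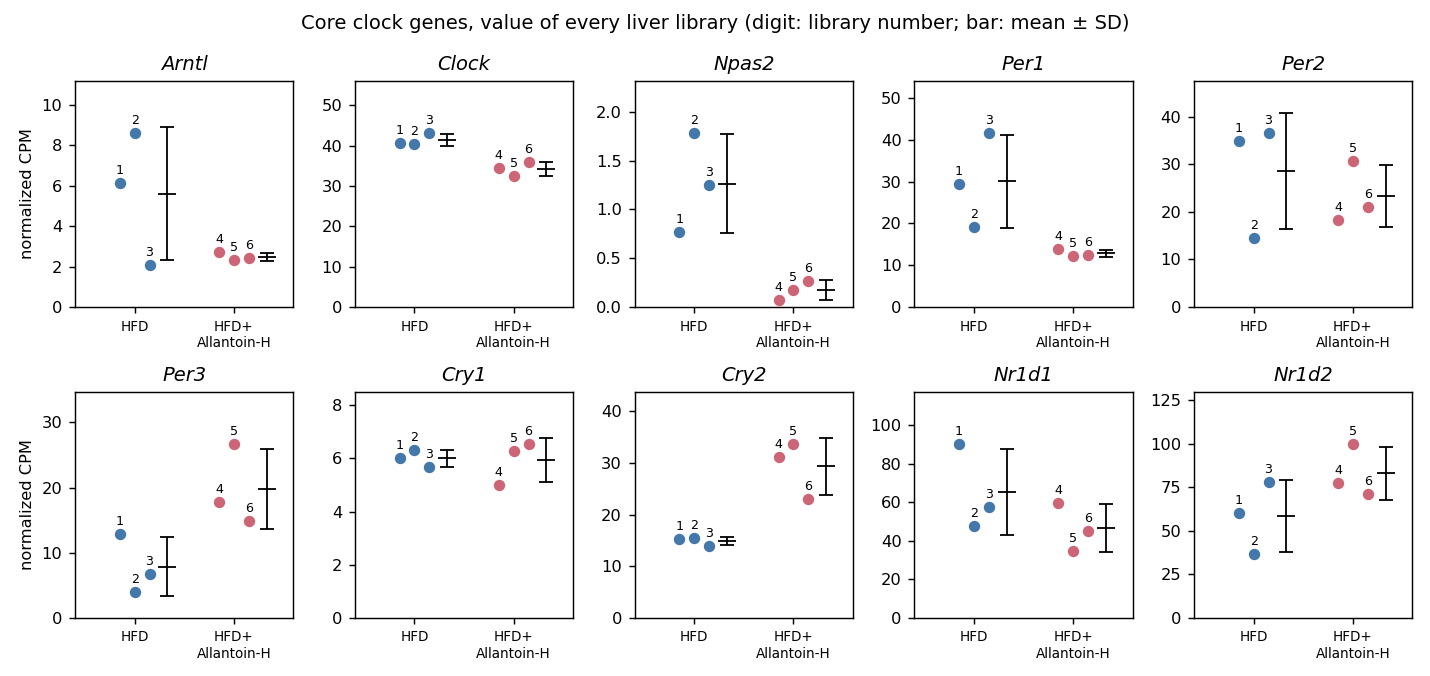
Normalized CPM of the 10 clock genes in every library, with 1 panel and 1 vertical scale per gene starting at 0. Points carry the library number and bars give mean ± SD of the 3 libraries of a group. The 2 groups do not overlap for Clock, Npas2, Per1, Per3 and Cry2.

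The activating limb is read first. Arntl (ENSMUSG00000055116, chromosome 7, 113207465 to 113314126, plus strand, GRCm38) encodes the obligate partner of the activator pair. Its level was 6.11, 8.59 and 2.09 CPM in HFD1, HFD2 and HFD3, and 2.71, 2.31 and 2.43 CPM in HAH4, HAH5 and HAH6. HFD1 and HFD2 were above every HFD+Allantoin-H library, while HFD3 was below all of them. The mean was 5.6 ± 3.28 CPM (SD, n = 3) in HFD and 2.48 ± 0.208 CPM in HFD+Allantoin-H. The log2 fold change of -1.16 (SE 0.48, 95% interval -2.24 to -0.09) was not called, with an edgeR adjusted p of 0.104. Without HFD3, the library rich in heat-shock RNA, Arntl was called lower, at -1.56 with an adjusted p of 0.00874, and without HFD2, the library with the highest Arntl and the most adipocyte marker RNA, it was at -0.71 with an adjusted p of 0.318.

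Npas2 (ENSMUSG00000026077, chromosome 1, 39193731 to 39363236) encodes the relative of CLOCK that can take its place beside BMAL1. It had 7, 18 and 15 counts in HFD1 to HFD3 and 1, 3 and 4 counts in HAH4 to HAH6, too few to pass the filter on low counts, so it has no test in the fit. In CPM these were 0.764, 1.78 and 1.25 against 0.0733, 0.177 and 0.27. Every HFD+Allantoin-H library was below every HFD library. The summed counts, 40 against 8, gave a depth-corrected ratio of 7.26 between HFD and HFD+Allantoin-H (95% exact interval 3.35 to 18, counting error only). With no filter Npas2 was called lower, at -2.75 with an edgeR adjusted p of 0.0244. That fit kept 23635 genes and moved adjusted p-values at near-equal fold changes. Per1 went from 0.0126 (-1.23) to 3.94e-06 (-1.19) and Clock from 0.199 (-0.27) to 0.545 (-0.23). Its calls are therefore not comparable with those of the main fit.

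Clock (ENSMUSG00000029238, chromosome 5, 76209868 to 76304792) encodes the usual partner of BMAL1 and has the flattest daily RNA profile of the activators in liver. It was at 40.6, 40.4 and 43.1 CPM in HFD and at 34.4, 32.5 and 36 CPM in HFD+Allantoin-H. The groups did not overlap, with means of 41.4 ± 1.53 and 34.3 ± 1.75 CPM (SD, n = 3). The log2 fold change of -0.27 (SE 0.14, 95% interval -0.6 to 0.06) was not called, with an adjusted p of 0.199. Its sign turned under scaling by library size, to 0.14, and after removal of a trend on transcript length and GC content it was called lower, at -0.48 with an adjusted p of 0.0373. Of the 2 activators tested, edgeR, DESeq2 and limma-voom called 0, and 1 had an unadjusted p under 0.05.

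The 3 Per genes, whose proteins carry CRY into the nucleus and slow the loop, each took a different course. Per1 (ENSMUSG00000020893, chromosome 11, 69095217 to 69109960), which also answers quickly to cyclic AMP and glucocorticoids, was at 29.4, 19.2 and 41.6 CPM in HFD. In HFD+Allantoin-H it was at 13.9, 12.2 and 12.4 CPM, below every HFD library and within a narrow range. It fell from 30.1 ± 11.3 to 12.8 ± 0.901 CPM (SD, n = 3), 2.35-fold, with a log2 fold change of -1.23 (SE 0.27, 95% interval -1.83 to -0.63) and an edgeR adjusted p of 0.0126. The call was lost under library-size scaling (-0.83, adjusted p 0.0582), without HAH5 (-1.19, 0.0619) and without HAH6 (-1.2, 0.0537), and kept without HFD3 (-0.92, 0.015), the library with the highest Per1.

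Per2 (ENSMUSG00000055866, chromosome 1, 91415982 to 91459324), the Per gene most tied to the length of the cycle, was at 34.8, 14.5 and 36.5 CPM in HFD and at 18.3, 30.6 and 21.1 CPM in HFD+Allantoin-H. HFD2 lay below all 3 HFD+Allantoin-H libraries and the other HFD libraries above them. The log2 fold change was -0.29 (SE 0.34, 95% interval -1.06 to 0.47), with an adjusted p of 0.559, and it turned to 0.13 under library-size scaling. Leaving out single libraries gave -0.61 (without HFD2) to -0.07 (without HFD3).

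Per3 (ENSMUSG00000028957, chromosome 4, 151003652 to 151044665), whose promoter carries the 2 D-boxes shown above, was at 12.9, 3.95 and 6.69 CPM in HFD and at 17.8, 26.7 and 14.9 CPM in HFD+Allantoin-H. Every HFD+Allantoin-H library was above every HFD library, though HFD1 came close to HAH6. Per3 rose from 7.84 ± 4.58 to 19.8 ± 6.16 CPM (SD, n = 3), 2.54-fold, with a log2 fold change of 1.35 (SE 0.4, 95% interval 0.44 to 2.25) and an adjusted p of 0.039. Its direction held without any single library (1.03 to 1.88), but the call rested on all of them save HFD1: the adjusted p was 0.069 without HFD2, 0.0604 without HFD3, 0.0858 without HAH4, 0.15 without HAH5 and 0.0636 without HAH6.

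The 2 Cry genes encode the direct repressors of CLOCK and BMAL1. Cry2 (ENSMUSG00000068742, chromosome 2, 92403646 to 92434043) was at 15.3, 15.4 and 13.9 CPM in HFD and at 31.2, 33.7 and 23.1 CPM in HFD+Allantoin-H. The HFD libraries were nearly level, and all 3 HFD+Allantoin-H libraries were well above them. Cry2 rose from 14.9 ± 0.849 to 29.3 ± 5.53 CPM (SD, n = 3), 1.97-fold, with a log2 fold change of 0.98 (SE 0.19, 95% interval 0.56 to 1.41) and an adjusted p of 0.00844. It was the only member called under all 17 alternatives run, with log2 fold changes of 0.87 to 1.13 and adjusted p-values of 0.0114 to 0.0491 when single libraries were left out. A transcript on the opposite strand, D930015M05Rik, shares 295 exonic bases with Cry2, 4.67% of its exon length, and the strand setting of the counts is not given in the sources used here.

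Cry1 (ENSMUSG00000020038, chromosome 10, 85131700 to 85185064) encodes the stronger repressor, and among the Per and Cry genes its RNA peaks latest in the mouse liver. It was at 6, 6.32 and 5.68 CPM in HFD and at 4.99, 6.27 and 6.55 CPM in HFD+Allantoin-H. The groups overlapped throughout, with a log2 fold change of -0.01 (SE 0.25, 95% interval -0.57 to 0.54) and an adjusted p of 0.974.

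The REV-ERB genes encode nuclear receptors that bind heme and repress through the ROR element printed above for Arntl. Nr1d1 (ENSMUSG00000020889, chromosome 11, 98767932 to 98775333) was at 90.3, 47.7 and 57.3 CPM in HFD and at 59.7, 34.8 and 44.8 CPM in HFD+Allantoin-H. The means were 65.1 ± 22.3 and 46.4 ± 12.5 CPM (SD, n = 3), the ranges overlapped, and the log2 fold change of -0.49 (SE 0.28, 95% interval -1.11 to 0.14) had an adjusted p of 0.225. Without HFD1, the library with the highest Nr1d1, it was at -0.18, and without HAH5, the lowest, at -0.31. Thra, on the opposite strand, shares 263 exonic bases with Nr1d1, 8.55% of its exon length.

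Nr1d2 (ENSMUSG00000021775, chromosome 14, 18204054 to 18239127) was at 60.4, 36.8 and 78.2 CPM in HFD and at 77.6, 100 and 71.3 CPM in HFD+Allantoin-H. HFD3 lay inside the HFD+Allantoin-H range and the other HFD libraries below it. The log2 fold change of 0.51 (SE 0.27, 95% interval -0.1 to 1.11) had an adjusted p of 0.197, and Nr1d2 was called higher under library-size scaling (0.92, 0.044) and without HFD3 (0.78, 0.0436), and was at 0.26 (0.417) without HFD2. A locus named AC170187.1 shares 1385 bases with Nr1d2 at 96.1% identity, so reads could be split between them. For the 2 REV-ERB genes, edgeR, DESeq2 and limma-voom called 0, and 0 had an unadjusted p under 0.05.

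**Figure D2:**
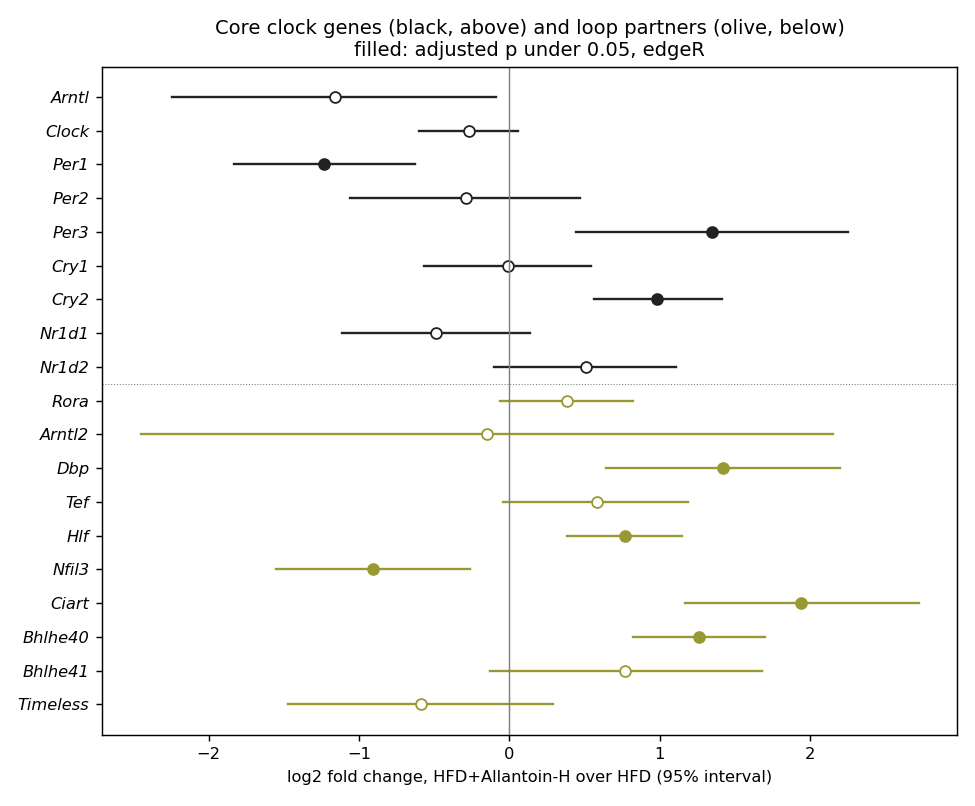
Log2 fold change (HFD+Allantoin-H minus HFD, edgeR) of the 9 tested members and of 10 loop partners named in the text, with 95% intervals on the horizontal axis. Cry2 at 0.98 and Per3 at 1.35 lie above 0 and Per1 at -1.23 below it, while Cry1 at -0.01 sits on the line.

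By limb, the median log2 fold change was -0.72 over the 2 tested activators, -0.01 over the 5 Per and Cry genes, with 2 called higher and 1 lower, and 0.01 over the 2 REV-ERB genes. The repressing limb thus held called members on both sides, 2 higher and 1 lower. By sign alone, 3 of its 7 genes had positive and 4 had negative fold changes, the latter including Cry1 at -0.01.

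For several members the HFD libraries differed widely from each other. HFD2 had the highest Arntl and Npas2 of the 6 libraries and the lowest Per2, Per3 and Nr1d2. HFD3 had the lowest Arntl of the 6 and the highest Clock, Per1 and Per2. Among the HFD+Allantoin-H libraries Arntl spanned only 2.31 to 2.71 CPM and Per1 only 12.2 to 13.9 CPM. HAH5 had the highest Per3, Cry2 and Nr1d2 of all libraries, and the lowest Nr1d1.

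**Figure D3:**
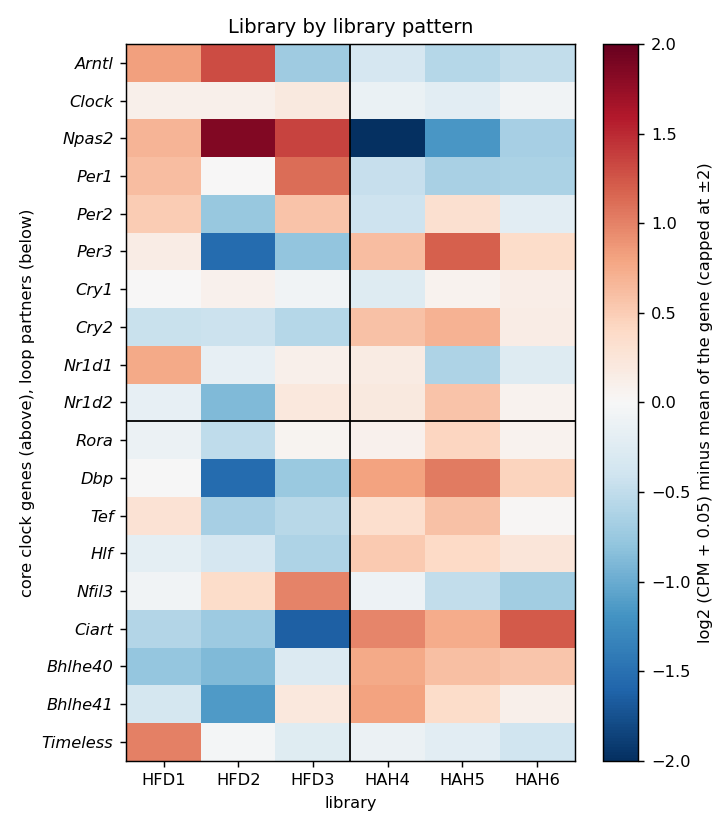
Each member's level in every library, as the log2 difference from that gene's mean over the 6 libraries (log2 of CPM plus 0.05, colour scale capped at 2 log2 units either way), with the 10 members in the upper rows, loop partners named in the text below them and libraries in columns. HFD2 shows the highest Arntl and Npas2 together with the lowest Per2, Per3 and Nr1d2, a set that HFD1 and HFD3 do not share.

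Ratios between members within the same library cannot be moved by the scaling of libraries, and they are given as a description with no test. All but Cry1 to Nr1d1, which are both repressors, set an activator against a repressor. The log2 ratio of Npas2 to Nr1d2 was -6.21, -4.34 and -5.92 in HFD and -9.46, -8.92 and -7.88 in HFD+Allantoin-H. These did not overlap, with a difference in means of -3.27. Npas2 had only 1, 3 and 4 counts in HAH4 to HAH6, so the size of this ratio depends on the added pseudocount. With a pseudocount of 1 the difference was -3.07. The log2 ratio of Clock to Per3 was 1.65, 3.34 and 2.68 in HFD and 0.95, 0.28 and 1.27 in HFD+Allantoin-H, a difference of -1.72. These did not overlap either, but that had to follow. Every HFD+Allantoin-H library was already below HFD for Clock and above it for Per3. The remaining 3 ratios overlapped between groups. Arntl to Nr1d1 was -3.87, -2.47 and -4.75 in HFD against -4.44, -3.9 and -4.19, and its difference of -0.48 turned to 0.14 without HFD2. Arntl to Per2 was -2.5, -0.75 and -4.1 against -2.74, -3.71 and -3.1, and its difference of -0.73 turned to 0.12 without HFD2. Cry1 to Nr1d1, both targets of the activator pair with different peak times, was -3.9, -2.91 and -3.32 against -3.57, -2.47 and -2.77, a difference of 0.44.

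**Figure D4:**
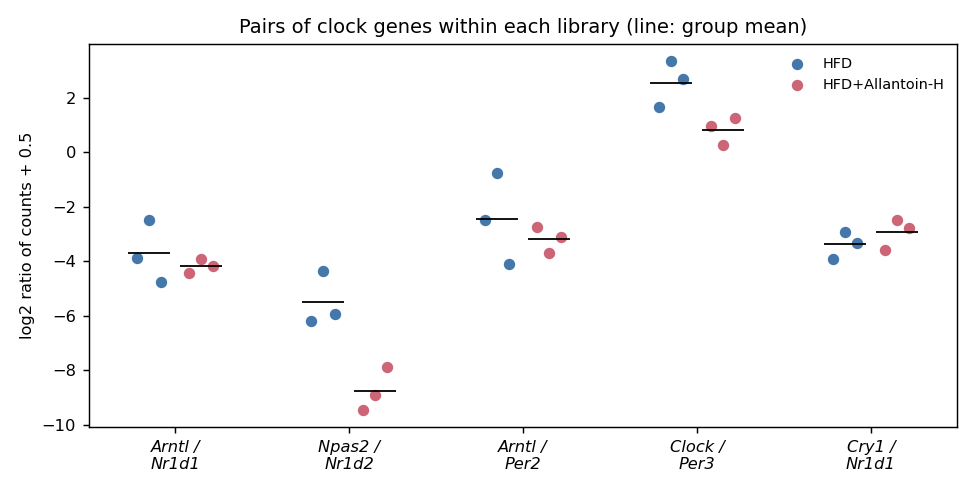
Log2 ratio of counts of 5 member pairs within each library, 3 points per group, with group means. The Npas2 to Nr1d2 and Clock to Per3 ratios of HFD+Allantoin-H all lie below those of HFD, and the single high HFD point of both Arntl ratios is HFD2.

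Levels between genes were compared as CPM per kilobase of exon. In HFD the order was Nr1d1 (21.2 ± 7.26, SD, n = 3), Nr1d2 (10.8 ± 3.83), Per1 (5.34 ± 2), Per2 (4.88 ± 2.09), Clock (3.01 ± 0.111), Cry2 (2.35 ± 0.134), Cry1 (1.8 ± 0.0952), Per3 (0.816 ± 0.476), Arntl (0.744 ± 0.436) and Npas2 (0.264 ± 0.106). The ranges of neighbours overlapped from Nr1d2 through Clock and from Per3 through Npas2. In HFD+Allantoin-H, Nr1d2 (15.4 ± 2.81) and Nr1d1 (15.1 ± 4.07) were level within their ranges. Cry2 came next at 4.64 ± 0.875 CPM per kilobase, overlapping Per2 at 3.98 ± 1.1, so that Cry2 stood 3 places higher in the order than in HFD. Clock (2.5 ± 0.128), Per1 (2.28 ± 0.16) and Per3 (2.06 ± 0.641) each overlapped the next, with Cry1 (1.78 ± 0.25) the last of that run. Arntl (0.33 ± 0.0276) and Npas2 (0.0362 ± 0.0205) were lowest and apart from each other. By group means the REV-ERB genes were thus the most abundant members in both groups and Arntl and Npas2 the least. In HFD, however, the ranges of Arntl (0.278 to 1.14) and Per3 (0.411 to 1.34) overlapped.

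The genes that close further loops around these members were taken from a list of 12, of which 11 were tested, 4 rose and 1 fell, beside 11.3% and 13.0% of all tested genes, with a median log2 fold change of 0.58 against -0.03 over all tested genes. Ciart, whose product binds BMAL1 and represses it, was at 2.84, 2.57 and 1.34 CPM in HFD against 8.43, 7.22 and 10.1 CPM, a log2 fold change of 1.94 (SE 0.34, adjusted p 0.00632). A pseudogene, Gm9176, shares 1126 bases with Ciart at 96.7% identity. Bhlhe40, the E-box repressor DEC1, was at 21.4, 19.9 and 30.3 against 62.2, 55.7 and 54.1 CPM, a log2 fold change of 1.26 (SE 0.2, adjusted p 0.00448). Ciart and Bhlhe40 were called under all 17 alternatives.

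The factors that bind the D-box also belong to that list. Dbp, a direct and strongly rhythmic target of the activator pair, was at 50.2, 17.3 and 30 CPM in HFD and 88.3, 103 and 68.8 CPM in HFD+Allantoin-H. All 3 HFD+Allantoin-H libraries were above HFD, with a log2 fold change of 1.42 (SE 0.35, adjusted p 0.0196), and the call was lost without HAH4 (1.41, 0.0627) or HAH5 (1.28, 0.079). Its overlap with Sphk2 on the other strand covers 539 exonic bases, 18% of its exon length. Hlf, a relative of Dbp, was at 48, 43.3 and 35.6 against 78.5, 72.1 and 65 CPM, a log2 fold change of 0.77 (SE 0.17, adjusted p 0.0146), lost without HAH4 (0.71, 0.069) or HAH5 (0.77, 0.0629) and after removal of the length and GC trend (0.52, 0.0657).

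Nfil3, the repressor at the same D-boxes, was at 16.4, 22.1 and 34.3 CPM in HFD and 16.1, 12.2 and 10.6 CPM in HFD+Allantoin-H. It fell, with a log2 fold change of -0.91 (SE 0.29, adjusted p 0.0475), but HFD1 was close to HAH4 and the call was lost in 9 of the 17 alternatives. Those include library-size scaling (-0.52, 0.263) and leaving out HFD2 (-0.97, 0.0627), HFD3 (-0.57, 0.0997), HAH4 (-1.08, 0.071), HAH5 (-0.86, 0.151) or HAH6 (-0.78, 0.156). Tef, the remaining relative of Dbp, was at 0.58 on the same scale with an adjusted p of 0.151. Rora, a receptor that activates where REV-ERB represses, was at 0.38 with an adjusted p of 0.181, while Rorb had 0 counts in every library. Arntl2 (-0.15), Timeless (-0.59) and Bhlhe41 (0.77) were not called either.

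Enzymes that modify or degrade clock proteins formed a list of 20, all tested, of which 2 rose and 4 fell, beside 11.3% and 13.0% of all tested genes. Usp2, a ubiquitin protease whose RNA is strongly rhythmic in liver, was at 5.79, 5.43 and 3.43 CPM in HFD against 32.4, 32.4 and 27.8 CPM, a log2 fold change of 2.67 (SE 0.23, adjusted p 0.00127). Prkaa2, the AMPK catalytic subunit α2, of a kinase that marks CRY1 for degradation, rose by 1.11 on the log2 scale (SE 0.18, adjusted p 0.00512). Usp2 and Prkaa2 were called under all 17 alternatives.

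The 4 that fell were Fbxw7, Siah2, Mycbp2 and Csnk2b. The first 3 encode ubiquitin ligase components known to act on REV-ERBα. Fbxw7 was at 16.8, 17.6 and 17.7 against 7.18, 6.68 and 8.03 CPM, a log2 fold change of -1.25 (SE 0.18, adjusted p 0.00396), and was called under all 17 alternatives. Siah2 fell by 1.14 on the log2 scale (adjusted p 0.0327) and Mycbp2 fell by 0.62 (0.0464), and both calls were lost under library-size scaling (-0.76 and -0.19) and when HAH4, HAH5 or HAH6 was left out, with adjusted p-values of 0.0956 to 0.11 and 0.0917 to 0.156. Siah2 also lost its call after removal of the length and GC trend (-1.03, 0.065), and without HFD3, its highest library, it was at -0.63 (0.0414). Mycbp2 also lost its call without HFD1 (-0.45, 0.0926). Huwe1, the other REV-ERBα ligase listed, was at -0.13 with an adjusted p of 0.679. Csnk2b, a subunit of casein kinase 2, fell by 0.53 on the log2 scale (adjusted p 0.0352), a call lost under library-size scaling (-0.11) and without HFD2 (-0.48, 0.0801), HAH4 (-0.59, 0.0904), HAH5 (-0.49, 0.145) or HAH6 (-0.49, 0.127). It was at -0.2 (0.283) after removal of the length and GC trend and at -0.49 (0.11) with no filter. Csnk1d and Csnk1e, the kinases of PER, were at 0.42 (adjusted p 0.124) and -0.48 (0.343).

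Among 12 coregulators of the loop, all tested, 3 rose and 2 fell, beside the same background shares. Kat2b, an acetyltransferase that joins CLOCK and BMAL1, was at 22.9, 33.9 and 44.4 against 73.5, 76 and 75.9 CPM, a log2 fold change of 1.15 (SE 0.23, adjusted p 0.00953). Kmt2a, a histone methyltransferase recruited by CLOCK, was at 34.9, 22.5 and 28.2 against 9.46, 14 and 9.85 CPM, a log2 fold change of -1.36 (SE 0.23, adjusted p 0.00555). Kat2b and Kmt2a were called under all 17 alternatives. Crebbp, the acetyltransferase CBP, fell by 1.02 on the log2 scale (SE 0.2, adjusted p 0.00862), called in all alternatives but library-size scaling (-0.61, 0.0674). Over the 3 lists together, 9 of 43 tested genes were higher and 7 lower, beside 11.3% and 13.0% of all tested genes. Their median log2 fold change was 0.19.

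The genes whose levels were most like those of Arntl over the 6 libraries, by Pearson correlation of log2 CPM among 11129 genes, were Angptl4 (r = 0.994), Tmem86a (0.991), Lsm10 (0.988), Entpd2 (0.987) and Fpgs (0.987). The most opposite were Fer (-0.996), Rbm7 (-0.991), Col4a3bp (-0.991), Cul3 (-0.987) and Ranbp2 (-0.985). For Nr1d1 the most alike were Sema6a (0.995), Ccdc77 (0.972), Arl16 (0.965), Slc17a5 (0.965) and Rab29 (0.959), and the most opposite Ppil2 (-0.985), Usp31 (-0.975), Ccnd3 (-0.966), Tmem19 (-0.965) and Hk3 (-0.964). No canonical clock member was in these lists. With 6 libraries and so many genes compared, values of this size describe these libraries, and they carry no test.

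The tissue matched its label: 5 of the 6 hepatocyte markers were found by symbol. They summed to 82600 to 83400 CPM in HFD and 66500 to 94500 CPM in HFD+Allantoin-H. Alb, at 54400 to 82100 CPM, dominated that sum. Single markers moved apart: edgeR called Apoa1 (-1.23, adjusted p 0.0079) and Ttr (-0.79, 0.0211) lower and Cps1 (1.05, 0.0385) higher. Alb (0.13) and Hnf4a (-0.11) were not called. These 1 higher and 2 lower of 5 stand beside 11.3% and 13.0% of all tested genes. Among markers of other cells, only the Kupffer and stellate sums did not overlap between the groups. Kupffer cell markers, 6 of 6 measured, summed to 92.1 to 213 CPM in HFD and 253 to 287 CPM in HFD+Allantoin-H, and stellate cell markers, 6 of 6, to 119 to 181 and 304 to 357 CPM. Of the 6 Kupffer markers 3 were called higher, while Timd4 (-0.1), Clec4f (0.29) and Marco (1.29) were not called. Of the 6 stellate markers 5 were called higher and Des (-0.02) was not. These stand beside the 11.3% of all tested genes called higher. No listed marker was at 0 in every library. Endothelial markers summed to 64.5 to 113 and 101 to 159 CPM, lymphocyte markers to 13.4 to 18.3 and 13.3 to 17 CPM, and cholangiocyte markers to 34.3 to 159 and 21.7 to 76.7 CPM. Of the 3 cholangiocyte markers tested, Sox9 was called lower (-3.17, edgeR adjusted p 0.00735) and the others were not, beside 13.0% of all tested genes. Erythroid markers summed to 308 to 1230 CPM in HFD, lowest in HFD3, and to 830 to 1000 CPM in HFD+Allantoin-H. The part of these cells in the changes of Per1, Per3 and Cry2 was not tested. In bulk liver a change in the number of cells of a type and a change in RNA per cell cannot be told apart.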

How the data were processed

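Liver RNA was extracted with a column kit, made into SMARTER mRNA libraries and sequenced. Kits are per the labels, while the Illumina instrument and the filtering of reads are per the study's methods. The authors deposited raw counts per gene for 3 HFD and 3 HFD+Allantoin-H libraries. The submitters' processing notes name the builds GRCm38 and mm10, while the aligner, counter and strand setting are not given in the sources used here. Identifiers were matched to GENCODE M21 (54495 of 54532 found), and 429 features with no Ensembl identifier, 0.197 to 0.306% of counts, were left out.

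Genes were filtered with filterByExpr, normalized by TMM and tested two-sided with the quasi-likelihood test of edgeR 4.0.16 (R 4.3.3) on group alone, with Benjamini-Hochberg adjustment over 12795 genes and calls at an adjusted p under 0.05. Standard errors came from the F statistic. Members and gene lists were chosen with earlier results of these data known, so no p-value was computed over a list. All members were named, as were every called gene of the loop and modifier lists, the 3 called genes with the smallest p of each other list, and the 5 genes most and least correlated with Arntl and Nr1d1 (log2 CPM, prior count of 2, mean of at least 1 CPM, no predicted genes). Genes named in addition were chosen after their values were seen. Pair ratios used a pseudocount of 0.5 counts. Alternatives were RLE, upper-quartile and library-size scaling, DESeq2 1.42.0, limma 3.58.1 (voom), other filters, an adjusted p under 0.01, removal of a length and GC trend (splines of 5 degrees of freedom), leaving out mitochondrial genes, and leaving out each library. The procedure was tested on simulated counts. Motifs were searched in RefSeq promoter windows. Some genes of the lists are counted in the totals but are not reported by name here.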

Additional observations from a re-analysis of the deposited data

How the results depend on the processing

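No paired analysis was possible because the groups share no replicate numbers. Every printed alternative was planned. With library-size scaling, 3162 genes were called higher and 674 lower (1446 and 1666 with TMM), 0 members were lower, and of the 6 lists of other clock and input genes 24 were higher and 3 lower (11 and 9 with TMM). That scaling, which by its own construction moved the median of all genes from -0.03 to 0.38, also turned Clock to 0.14, Per2 to 0.13 and Cry1 to 0.4, took the call from Per1 (-0.83) and called Nr1d2 (0.92). With 0.01 as the limit on adjusted p, 443 genes passed as higher and 573 as lower, 1 member (Cry2) was higher and 0 lower, Per1 (-1.23) and Per3 (1.35) no longer passing, and 5 and 3 of the listed genes passed. With no filter 3 members were lower, Arntl at -1.12 and Npas2 at -2.75 joining Per1, and Cry1 was at 0.02. The adjusted p-values of that fit are not comparable with the main ones, as shown above for Per1 and Clock. With the length and GC trend removed 2 members were lower, Per1 and Clock (-0.48). Leaving out 1 HFD library gave 1222 to 1773 genes higher and 1339 to 2008 lower. Leaving out 1 HFD+Allantoin-H library gave fewer, 460 to 702 higher and 564 to 832 lower. Over the fits without 1 library, 1 to 2 members were higher and 0 to 2 lower. Of the listed genes 5 to 16 were higher and 3 to 8 lower. Across the same fits the log2 fold change was -1.56 to -0.71 for Arntl, -3.2 to -2.45 for Npas2 (in the 4 fits whose filter it passed, through its HFD counts), -1.47 to -0.92 for Per1, 1.03 to 1.88 for Per3, -0.61 to -0.07 for Per2, -0.7 to -0.18 for Nr1d1, 0.26 to 0.78 for Nr1d2, and -0.09 to 0.1 for Cry1, which turned to 0.02 without HFD2 and 0.1 without HAH4. The Arntl to Nr1d1 difference ran from -1.01 to 0.14 and the Arntl to Per2 difference from -1.56 to 0.12, both positive without HFD2 alone. The cause of these shifts was not tested. Depth limits Npas2, with 1 to 18 counts a library.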

Other observations

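Known inputs of the liver clock were read from 3 further lists. Of 9 glucocorticoid-induced genes, all tested, 2 rose and 2 fell, beside 11.3% and 13.0% of all tested genes. Mt2, a metallothionein, was at 72.6, 14.9 and 82.1 CPM in HFD and 4.11, 1.24 and 8.91 CPM in HFD+Allantoin-H. It fell by 3.58 on the log2 scale (edgeR adjusted p 0.0112), a call lost without HAH4 (0.0536). Fkbp5, a co-chaperone of the glucocorticoid receptor, was at 20.3, 20.1 and 16.3 against 34.5, 34.5 and 27.8 CPM and rose by 0.77 on the log2 scale (adjusted p 0.0148), lost without HAH4 (0.0664) or HAH5 (0.0699). Klf9, a transcription factor that is rhythmic in many tissues, was at 17.1, 17 and 47.2 against 93, 86.5 and 65.5 CPM and rose by 1.59 (adjusted p 0.0192), lost without HFD1 (0.054), HAH4 (0.0673) or HAH5 (0.0686). The list thus held called genes on both sides.

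Of 7 temperature-responsive genes edgeR, DESeq2 and limma-voom called 0, and 1 had an unadjusted p under 0.05 in edgeR. DESeq2 gave no adjusted p for Dnajb1 and Hspa1b, so it could not have called them. The libraries differed within HFD: Hspa1b was at 5.9, 9.48 and 297 CPM in HFD1 to HFD3 and at 12.2, 53 and 15.4 CPM in HAH4 to HAH6. Of 7 genes induced by fasting or CREB, 1 rose, beside 11.3% of all tested genes: Ppargc1a, at 3.49, 3.36 and 5.18 CPM in HFD and 6.82, 9.52 and 7.83 CPM in HFD+Allantoin-H (adjusted p 0.0343). That call was lost after removal of the length and GC trend (0.0663) and without any single library but HFD3 (0.0684 to 0.146). In the same list Igfbp1 was at 15.6, 10.2 and 290 CPM in HFD and at 13.1, 17.8 and 16.5 CPM in HFD+Allantoin-H. It was not called, with an edgeR adjusted p of 0.0928. HFD3, the library with the highest Per1, also held the most Igfbp1 RNA, but that is 1 library and a link between these genes was not tested.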
